A study of Mus musculus with 10 samples.

Results

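The proteasome subunits and their assembly factors were followed in RNA from mouse livers on Affymetrix expression arrays. The members were the probe sets with exactly 1 gene symbol made of Psma, Psmb, Psmc, Psmd, Psme, Psmf or Psmg and a digit, leaving out Psmb8 and Psmb9. A probe set is a group of short probes that read 1 stretch of a transcript, usually close to its 3' end. The rule gave 100 of 45037 probe sets, for 47 genes, and 81 of these probe sets, for 46 genes, passed a filter on low values. A probe set shared by Psme2 and Psme2b carried 2 symbols and so was not a member. Psmb11 did not pass the filter.

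The livers came from male C57BL/6 NHsd mice, an inbred strain, killed 5 days after an injection into the tail vein. One group received phosphate-buffered saline alone (PBS, n = 2 arrays). The other groups received lipid nanoparticles at 1.5 mg/kg, which carried a control RNA (n = 4) or siRNAs, short RNAs that silence matching transcripts, against all Rab5 genes (n = 4). In the titles this control is scrambled and in the design text it is directed at luciferase, so the neutral name control siRNA is used. Rab5 proteins are small GTPases of early endosomes. The Rab5 siRNAs are 1 treatment here, in which the loss of Rab5 and any other effect of these RNAs cannot be told apart. The whole liver was sampled, with all its cell types. Ages were not given in the sources used here. Livers are numbered in the titles without a statement that each is a separate mouse, and the p-values cover only the variation among these samples.

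The proteasome is the barrel-shaped protease that degrades most short-lived and damaged proteins of the cytosol and nucleus, usually after they are tagged with ubiquitin. Its core is built of alpha rings, which gate the entry, and beta rings, which hold the cutting sites. A regulatory particle with a base of ATPases and a lid that removes ubiquitin caps the core, and other caps, the activators, open it without ATP. Dedicated chaperones help the rings and the base to assemble. The transcription factor NRF1 (Nfe2l1) is known to raise many subunit genes together when proteasome activity is short. In liver, an organ that makes and turns over much protein, the genes of the standard core, base and lid are normally active in hepatocytes.

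The members fell into classes from textbook knowledge. There were 7 genes of the core alpha ring, 7 of the core beta ring, 9 of the base, 8 of the lid, 4 activators and inhibitors, and 7 assembly factors. Psma8, Psmb10 and Psmb11 belong to core particles of particular tissues (testis, immune cells and thymus). Psmc3ip, a cofactor of meiotic recombination, and Psme3ip1, which binds Psme3, met the naming rule but are not subunits.

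Promoters of 38 of the 46 genes were found in RefSeq (GRCm38.p6), 41 promoters of 250 bases before and 50 bases after a start. The 4 shown are those of the largest rises (Psmd8, a lid subunit, and Psmb4, of the beta ring), of the fall (Psmd9, an assembly chaperone), and of Psmb5, a catalytic subunit whose level did not pass the test. Only the 250 bases before the start are printed, 5′ to 3′ on the gene's strand, and capitals mark the antioxidant response element core, TGACNNNGC, which NRF1 and NRF2 are known to bind. They lie at chr7:29180674-29180923 (minus strand), chr3:94886959-94887208 (minus strand), chr5:123227940-123228189 (plus strand) and chr14:54617996-54618245 (minus strand).
Psmd8: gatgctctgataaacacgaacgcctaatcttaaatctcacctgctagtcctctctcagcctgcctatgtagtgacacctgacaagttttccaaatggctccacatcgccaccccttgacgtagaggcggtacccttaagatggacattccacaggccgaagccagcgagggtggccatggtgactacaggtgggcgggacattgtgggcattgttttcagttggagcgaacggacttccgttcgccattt
Psmb4: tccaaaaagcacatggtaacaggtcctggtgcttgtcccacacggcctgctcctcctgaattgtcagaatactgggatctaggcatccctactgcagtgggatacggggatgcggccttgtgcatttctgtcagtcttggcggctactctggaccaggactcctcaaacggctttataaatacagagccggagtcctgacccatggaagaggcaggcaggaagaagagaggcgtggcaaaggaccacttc
Psmd9: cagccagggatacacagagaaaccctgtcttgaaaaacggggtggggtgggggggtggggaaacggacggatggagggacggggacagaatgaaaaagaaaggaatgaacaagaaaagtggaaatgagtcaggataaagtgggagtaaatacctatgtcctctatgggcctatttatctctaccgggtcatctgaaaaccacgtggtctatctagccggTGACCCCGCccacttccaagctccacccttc
Psmb5: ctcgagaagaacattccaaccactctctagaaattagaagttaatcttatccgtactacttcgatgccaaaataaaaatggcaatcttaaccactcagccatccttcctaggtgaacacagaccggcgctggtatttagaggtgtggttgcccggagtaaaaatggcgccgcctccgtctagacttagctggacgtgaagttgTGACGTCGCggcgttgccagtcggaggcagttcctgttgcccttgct

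Searched on both strands (TGACNNNGC or GCNNNGTCA), this element was in 6 of 41 member promoters (14.6%), against 12.4% of 32851 promoters of the same length. It began 31 bases before the start of Psmd9 and 47 before that of Psmb5. It was also found for Psmb6, Psmc6, Psmd12 and Psme4. Of these 6 genes 0 rose and 1, Psmd9, fell, and of the other 32 with a promoter 5 rose and 0 fell. The median difference was 0.0149 with the element and 0.1156 without it. Of all genes tested for Rab5 siRNA against control siRNA, 13.8% rose and 9.51% fell. Whether the calls differ with either motif of this paragraph was not tested. The CCAAT box (CCAAT or ATTGG), bound by NF-Y, was in 14 of 41 member promoters (34.1%) against 37.4% of all. Of these 14 genes 0 rose and 0 fell, and of the other 24 with a promoter 5 rose and 1 fell. The median difference was 0.0656 with the box and 0.0722 without it. All 5 alpha ring genes with it, Psma1, Psma2, Psma3, Psma6 and Psma7, had positive differences that did not pass. Of the alpha ring genes not found with the box, Psma4 was at 0.27 and Psma5 at -0.15. Psmb3, Psmc1, Psmd4 and Psme3ip1 with it had negative differences, and its other genes positive ones. No member gene with a promoter held both motifs. A match describes letters, not binding, and no match says only that these letters are not in the window.

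The silencing and the tissue were checked first. Rab5a changed by -1.81 (SE 0.176, adjusted p = 1.16e-05 by limma) and Rab5c by -1.99, while Rab5b, near the filter's level, changed by -0.24 and did not pass. All 9 hepatocyte markers of a fixed list were measured. Their list mean on the log2 scale was 12.25 and 12.34 with PBS, 12.10 to 12.26 with control siRNA and, lower, 11.92 to 11.98 with Rab5 siRNA. The genes of the list did not move alike. Against control siRNA, Tat (-1.37) and Cps1 (-0.35) fell. Ass1 (-0.44), Ttr (-0.17), Hnf4a (-0.17), Apoc3 (0.01), Alb (0.05), Fgb (0.07) and Apoa1 (0.18) did not pass. Medians of the arrays lay between 4.29 and 4.37. The array numbered 2 had the highest 3' minus 5' difference of Gapdh, a measure of RNA integrity, in each group (2.58, 2.86 and 2.67 in PBS, control and Rab5 livers), and the other arrays ranged from 2.15 to 2.38. The same difference for Actb set only the Rab5 arrays apart, at 2.593 to 2.754, below 2.844 to 3.233 with control siRNA and 2.826 and 3.129 with PBS. It moved with the treatment, and its part in the differences described here was not tested. In whole liver, fewer cells of a type and less RNA per cell cannot be told apart.

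With Rab5 siRNA 40 of the 46 proteasome genes did not pass the test, and the few that did were spread over the beta ring, the lid, the activators and the assembly factors. Against the control siRNA, 5 of 46 genes rose (Psmd8, Psmb4, Psme1, Psmd5 and Psmg4) and 1 fell (Psmd9) at an adjusted p under 0.05 by limma. That is 13% of the members, where 23.3% of all 12855 genes tested were called (13.8% up and 9.51% down). Only Psmd8 changed more than 2-fold, by 2.23 times. The median difference was 0.07 over the members and 0.00 over all genes (log2, Rab5 siRNA minus control siRNA), and 31 members had positive and 15 negative differences, against 6492 and 6363 of all genes. After quantile normalization or median centring, 25 members had positive and 21 negative differences. The median size of the difference, whatever its sign, was 0.14 in the members and 0.18 in all genes. In the core, base and lid together, 2 of 31 genes rose (6.45%) and 0 fell. By class, the medians were 0.21 in the alpha ring, 0.04 in the beta ring, 0.14 in the base, 0.09 in the lid, 0.09 in the activators and inhibitor, and 0.04 in the assembly factors. The medians of the beta ring and of the assembly factors were below 0 under both of these scalings, and that of the assembly factors was -0.07 without Rab5 replicate 4. The classes share the arrays, and differences between them were not tested. The 2 siRNA groups did not overlap in 8 members, 6 up and 2 down, against 25% of all genes (13.8% up and 11.2% down). The filter needed a value above 4.33 in at least 2 arrays of any group. The direction split depended on scaling: after a repeated quantile normalization 3 members rose and 3 fell, and after centring each array on its median 3 rose and 2 fell. Without the arrays numbered 2 of all groups, 1 member, Psmd8, was called, with 12% of all genes.

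**Figure D1:**
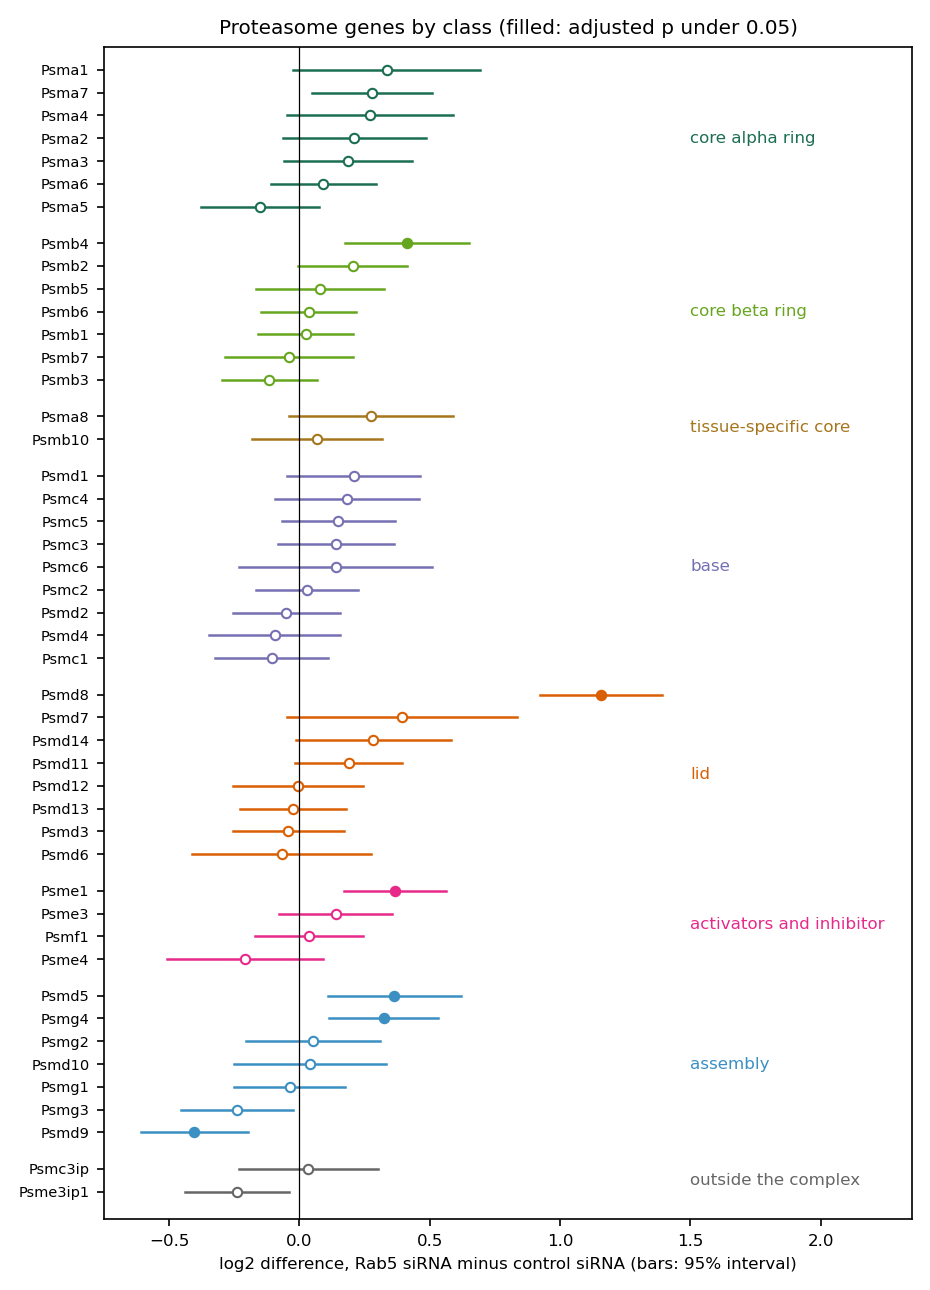
Difference of Rab5 siRNA minus control siRNA on the log2 scale (x axis) for the 46 genes that passed the filter, grouped by class, with 95% intervals of the limma model; filled points passed at an adjusted p under 0.05. Psmd8 stands alone at 1.16, while the other called genes lie at 0.41 or less in size and the open points at 0.39 or less.

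In the alpha ring, which forms the gate of the core, 0 of 7 genes passed, although 6 of 7 differences were positive and the median was 0.21. Without control replicate 1 the median was 0.13, and without Rab5 replicate 4 it was 0.14. Psma1 had the largest difference. Its values were 8.03, 7.94, 8.01 and 8.39 with control siRNA, and 8.18, 8.43, 8.16 and 8.93 with Rab5 siRNA. The groups overlapped, and Rab5 replicate 4 stood highest. The difference was 0.33 (SE 0.166, adjusted p = 0.171), and with the replicate number as a block it was called (adjusted p = 0.044). Psma7 differed by 0.28 (SE 0.106, adjusted p = 0.0771) with no overlap between the siRNA groups, 9.35 to 9.47 against 8.97 to 9.28, but PBS replicate 1, at 9.42, lay within the Rab5 range. Psma4 (0.27), Psma2 (0.21) and Psma3 (0.19) followed, and Psma5 was at -0.15. The smallest difference was that of Psma6, at 10.42, 10.50, 10.53 and 10.45 with control siRNA and 10.42, 10.57, 10.55 and 10.74 with Rab5 siRNA (0.09, adjusted p = 0.525). Together the 95% intervals of the 7 genes ran from -0.38 to 0.69, and larger changes in either direction lay outside every interval.

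The alpha ring genes shared their order across the Rab5 livers. Rab5 replicate 4 held the highest Rab5 value of all 7 genes, where it held that of 29% of all genes tested, and Rab5 replicates 1 and 3 held the lowest of 4 and 3. Psma4 stood at 9.24 and 9.05 in Rab5 replicates 4 and 2 but at 8.74 and 8.63 in replicates 1 and 3. Some genes of other classes had the same order of these pairs, such as Psmc6 of the base, at 8.05 and 7.82 against 7.19 and 7.29. The class median, set to each gene's control siRNA mean, was 0.35 and 0.27 in Rab5 replicates 4 and 2 and 0.04 and 0.07 in replicates 1 and 3. In control livers it ran from -0.11 to 0.12. The position of 1 array in this order was noticed after the values were seen, and genes of 1 array are not independent.

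**Figure D2:**
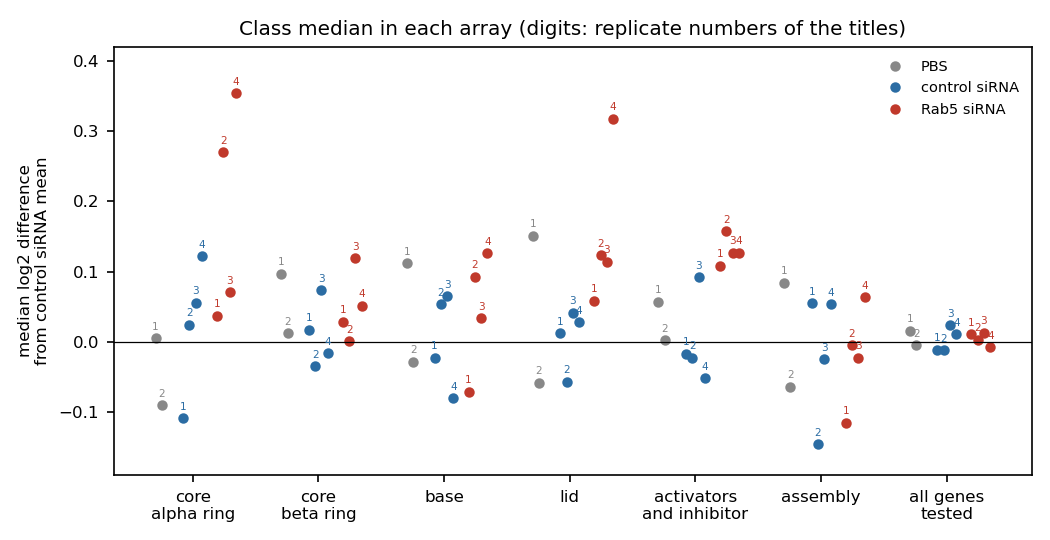
Median over the genes of a class of the log2 difference from each gene's control siRNA mean (y axis), with 1 point per array, coloured by group and marked with its replicate number. Rab5 replicates 2 and 4 stand apart in the alpha ring, while the median of all genes tested stays between -0.01 and 0.02 in every array.

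In the beta ring 1 of 7 genes rose. Psmb4, a subunit without a cutting site, was at 10.51, 10.74, 10.80 and 10.38 with control siRNA and at 10.92, 10.94, 11.13 and 11.09 with Rab5 siRNA. All Rab5 arrays lay above all control and PBS arrays (10.84 and 10.83 in PBS). The change was 0.41 (SE 0.110, adjusted p = 0.016), 1.33-fold, and its adjusted p was 0.0517 without Rab5 replicate 3 and 0.0587 without the arrays numbered 2. This probe set is of a type (_x_at) whose probes can also match other transcripts, and the other Psmb4 probe set differed by 0.27 (adjusted p = 0.128 over all probe sets). Of the catalytic subunits, Psmb5 differed by 0.08 (interval -0.17 to 0.32), Psmb6 by 0.04 (interval -0.15 to 0.22) and Psmb7 by -0.04 (interval -0.29 to 0.20). Psmb6 was the steadiest of these, at 9.70 to 9.81 in control and 9.76 to 9.83 in Rab5 livers. Psmb2 (0.20) and Psmb3 (-0.12) did not pass either. Psmb1, with the smallest difference (0.02, adjusted p = 0.877), was at 9.60, 9.54, 9.58 and 9.58 with control siRNA and 9.55, 9.58, 9.57 and 9.70 with Rab5 siRNA. The median of the ring was 0.04.

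Core subunits of particular tissues did not pass. Psmb10, the immune counterpart of the catalytic Psmb7, was at 8.32, 7.87, 8.32 and 8.35 with control siRNA and 8.30, 8.23, 8.39 and 8.21 with Rab5 siRNA, a difference of 0.07 (SE 0.116, adjusted p = 0.729). The groups overlapped. Psma8, the testis alpha subunit, lay near the level of the filter (3.64 to 4.58 over all arrays) and differed by 0.28 (adjusted p = 0.199, and 0.0324 with the replicate block). Psmb11, of the thymus, had no array above 3.995, and its difference of 0.25 had an adjusted p of 0.236 over all probe sets.

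In the base, the ring of ATPases that unfolds substrates with its scaffold and ubiquitin receptors, 0 of 9 genes passed. The ATPases were Psmc4 (0.18), Psmc5 (0.15), Psmc3 (0.14), Psmc6 (0.14), Psmc2 (0.03) and Psmc1 (-0.11). Psmc2 moved least, at 10.12, 10.24, 10.20 and 10.01 with control siRNA and 10.07, 10.24, 10.18 and 10.21 with Rab5 siRNA. The scaffold Psmd1 differed by 0.21 (adjusted p = 0.234), but was called without Rab5 replicate 1 (0.32, adjusted p = 0.0252), the array where it was lowest, at 8.37. The other scaffold, Psmd2, was at -0.05 and the ubiquitin receptor Psmd4 at -0.09. The median was 0.14, and 0.02 without Rab5 replicate 4. The arrays ran from -0.07 to 0.13 with Rab5 siRNA and from -0.08 to 0.06 with control siRNA.

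The lid held the largest change of the complex. Psmd8 (Rpn12), a scaffold subunit added late to the lid, was at 9.26, 9.04, 9.26 and 9.25 with control siRNA, at 9.29 and 8.89 with PBS, and at 10.42, 10.22, 10.43 and 10.37 with Rab5 siRNA. All 4 Rab5 livers lay above all others. It rose from 9.20 ± 0.108 to 10.36 ± 0.096 (SD, n = 4 each), by 1.16 (SE 0.109, adjusted p = 8.92e-06). The call held under every alternative run, with differences of 1.10 to 1.202. A single probe set measured Psmd8, so no other probes on the array speak to it.

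The other 7 lid genes did not pass. Psmd7, which pairs with the deubiquitinase Psmd14, differed by 0.39 (SE 0.204, adjusted p = 0.192), its control values spreading from 5.94 to 6.93 while the Rab5 values lay between 6.92 and 7.04. Psmd14 itself differed by 0.28 (adjusted p = 0.163), and by 0.41 without Rab5 replicate 1 (adjusted p = 0.0222). Its values were 8.64, 9.24, 8.87 and 9.33 in the Rab5 livers and 8.66 to 8.81 in controls. Replicates 2 and 4 were again the higher ones. Psmd11 (0.19), Psmd13 (-0.03), Psmd3 (-0.04) and Psmd6 (-0.07) did not pass. Psmd12 differed least (-0.01, adjusted p = 0.982), at 8.22, 8.20, 8.19 and 8.31 with control siRNA and 8.06, 8.26, 8.05 and 8.53 with Rab5 siRNA. The median of the lid was 0.09, and by array it ran from 0.06 to 0.32 with Rab5 siRNA, from -0.06 to 0.04 with control siRNA, and stood at 0.15 and -0.06 with PBS. Sem1, a small lid subunit outside the naming rule, rose by 0.60 (SE 0.126, adjusted p = 3.58e-03), with 9.40, 9.76, 9.79 and 9.86 in Rab5 livers against 8.90, 9.14, 9.31 and 9.06 in controls. PBS livers, at 9.28 and 9.55, overlapped the Rab5 range.

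**Figure D3:**
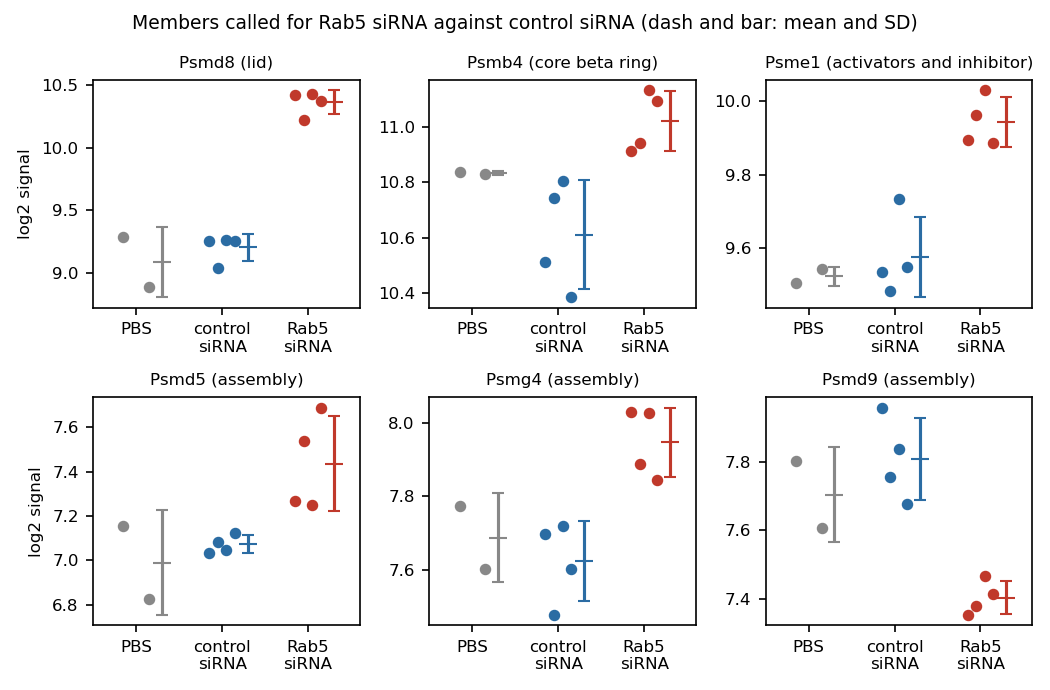
Log2 signal (y axis, a separate range for each gene) in each array for the 6 members that passed for Rab5 siRNA against control siRNA; each point is 1 array, and the dash and bar beside it are the mean and SD. In each panel the Rab5 arrays do not overlap the control arrays, and for Psmb4 the PBS arrays, at 10.84 and 10.83, lie between them.

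Among activators and inhibitors 1 of 4 rose. Psme1, the alpha subunit of the interferon-inducible activator, was at 9.54, 9.48, 9.73 and 9.55 with control siRNA, 9.51 and 9.54 with PBS, and 9.89, 9.96, 10.03 and 9.88 with Rab5 siRNA. The Rab5 livers lay above all others. The rise was 0.37 (SE 0.0908, adjusted p = 0.0103), 1.29-fold, and its adjusted p was 0.117 without the arrays numbered 2. Psme3, of the nuclear activator, differed by 0.14, and Psme4, the large single-chain activator, by -0.21. Psmf1, an inhibitor, differed least (0.04, adjusted p = 0.823), at 7.22, 7.26, 7.24 and 7.14 with control siRNA and 7.28, 7.30, 7.37 and 7.04 with Rab5 siRNA. The class median was 0.09, but 0.01 when the probe sets of a gene were averaged and 0.03 after a repeated quantile normalization. Of the interferon genes of a fixed list 0 of 8 tested passed, against 23.3% of all genes. Their list means were 7.03 to 7.21 in control and 7.03 to 7.40 in Rab5 livers. Of 10 Kupffer cell and macrophage markers 6 rose and 0 fell, where 13.8% of all genes rose and 9.51% fell. The list means of these markers were 8.65 and 8.78 with PBS, 8.63 to 8.97 with control siRNA and 9.005 to 9.60 with Rab5 siRNA. Cd68 had means of 6.81 with control siRNA and 7.89 with Rab5 siRNA. Clec4f (0.30), C1qa (0.26), Adgre1 (0.25) and Csf1r (-0.13) of this list did not pass. The part of Kupffer cells and macrophages in the rise of Psme1 was not tested.

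Of the assembly factors 2 of 7 rose and 1 fell, with a median of 0.04, where 13.8% of all genes rose and 9.51% fell. Psmd9, a chaperone of the base ATPases, was at 7.96, 7.76, 7.84 and 7.68 with control siRNA, 7.80 and 7.61 with PBS, and 7.35, 7.38, 7.47 and 7.42 with Rab5 siRNA. All Rab5 livers lay below all others. It changed by -0.40 (SE 0.0948, adjusted p = 7.55e-03), which left 0.756 of the control signal. A further probe set fell too, with a difference of -0.53 (adjusted p = 0.00861 over all probe sets), and another that did not pass the filter was at -0.39. Without the arrays numbered 2 its adjusted p was 0.0611. Psmd5, another base chaperone, rose from 7.07 ± 0.0405 to 7.44 ± 0.215 (SD, n = 4 each), by 0.36 (SE 0.118, adjusted p = 0.0404). Its Rab5 values were 7.27, 7.54, 7.25 and 7.69, the higher ones again in replicates 2 and 4, and PBS replicate 1 was at 7.16. Psmg4, a chaperone of the alpha ring, rose by 0.32 (SE 0.0964, adjusted p = 0.0277), from 7.70, 7.48, 7.72 and 7.60 to 8.03, 7.89, 8.03 and 7.85.

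Both of these rises were close to the threshold. After quantile normalization the adjusted p by limma was 0.0698 for Psmd5 and 0.0663 for Psmg4. After median centring it was 0.0575 and 0.0561. When single control arrays 1 to 4 were left out, the adjusted p of Psmd5 was 0.0856, 0.075, 0.0829 and 0.06, and leaving out Rab5 replicate 2 or 4 gave 0.112 or 0.11. For Psmg4, leaving out control replicate 2 or 4 gave 0.0811 or 0.0594, and leaving out Rab5 replicate 1, 2 or 3 gave 0.0524, 0.0518 or 0.0771. The partner chaperone Psmg3 differed by -0.24 (adjusted p = 0.104), and Psmg2 by 0.05. Psmg1, the partner of Psmg2, differed least (-0.04, adjusted p = 0.825), at 8.36, 8.18, 8.31 and 8.55 with control siRNA and 8.21, 8.32, 8.30 and 8.41 with Rab5 siRNA. Psmd10 (gankyrin), a further base chaperone, was at 0.04. Of the pair outside the complex, Psme3ip1 differed by -0.24 (adjusted p = 0.0775) and Psmc3ip by 0.03.

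Several genes were measured by more than 1 probe set, and these did not always move alike. In 20 genes, 35 further probe sets passed the filter, and 22 of them had the sign of the probe set that stood for the gene. Fitted over all 45037 probe sets, 9 of the 100 member probe sets were called (9%), against 10.9% of all. Among the further ones 2 were called up and 2 down. Psmd9 is described above. A Psmd11 probe set rose by 0.33 (adjusted p = 0.0281), with 8.96 to 8.998 in Rab5 livers and 8.61 to 8.78 in controls, where the brightest one differed by 0.19. A Psmd13 probe set close to the filter's level changed by -0.62 (adjusted p = 0.00194), while the brightest was at -0.03 and others at -0.02 and 0.16. That dim one passed the filter only through control and PBS arrays, with Rab5 values of 3.99 to 4.19. For Psmc3ip a dim probe set rose by 0.63 (adjusted p = 0.0173). It passed the filter only through Rab5 replicates 2 and 4, at 4.42 and 4.77, so its rise is no support for a change.

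**Figure D4:**
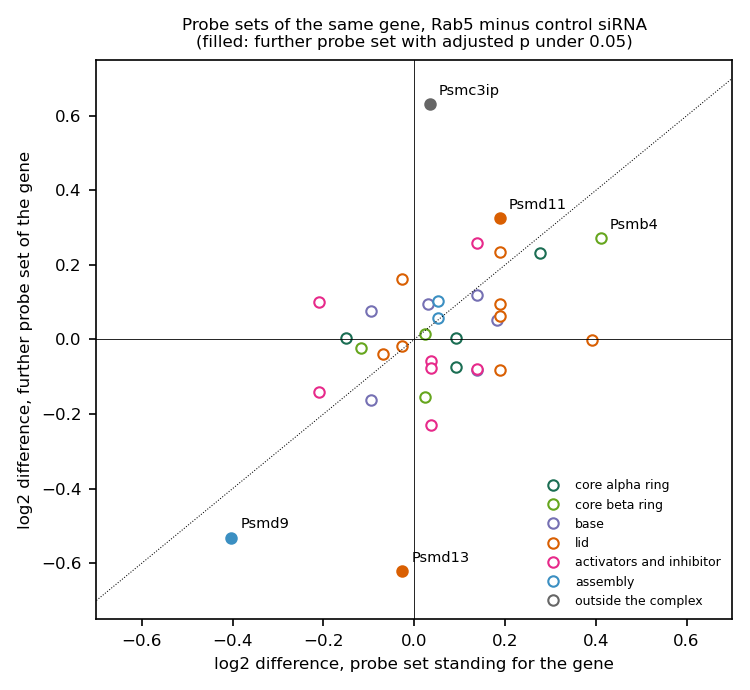
Log2 difference of Rab5 siRNA minus control siRNA for the probe set that stands for a gene (x axis) and for each further probe set of that gene that passed the filter (y axis), coloured by class; the dotted line marks equal differences. Psmd9 lies close to the line (-0.40 and -0.53), whereas single probe sets of Psmd13 (-0.62) and Psmc3ip (0.63) lie far from it. That of Psmd13 passed the filter only through control and PBS arrays, and that of Psmc3ip only through Rab5 arrays.

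The nanoparticle with control siRNA left no called change in the proteasome. For control siRNA minus PBS, 0 of 46 members passed, as did 0% of all genes by limma, and 1 member, Psma8, had an unadjusted p under 0.05, against 4.31% of all genes. The median difference was -0.04. The intervals of the members ran from -0.91 to 0.61, since PBS had 2 arrays. Psmd8 differed by 0.12, Psme1 by 0.05, Psmd9 by 0.10 and Psmb4 by -0.22.

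For Rab5 siRNA minus PBS, which shares the Rab5 arrays with the first comparison, 2 of 46 members passed, both up, against 17.1% of all genes (9.53% up and 7.59% down). Psmd8 stood at 1.27 (adjusted p = 2.76e-05) and Psme1 at 0.42 (adjusted p = 0.0194). Without PBS replicate 1, PBS replicate 2 or the arrays numbered 2, 1 member was called and Psme1 was lost. Psmd5 (0.45, adjusted p = 0.0504), Psmd9 (-0.30, adjusted p = 0.1), Psmg4 (0.26) and Psmb4 (0.19) did not pass. Psmd5 and Psmd14 were called too without Rab5 replicate 1, which made 4.

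Genes whose products work with the proteasome were counted next. Of 31 listed partners 22 were measured, 6 rose and 0 fell, with a median of 0.02, where 13.8% of all genes rose. Against control siRNA, Sem1, the autophagy and ubiquitin receptor Sqstm1 (0.56, SE 0.107, adjusted p = 2.08e-03 by limma) and the ubiquitin-binding Zfand5 (0.54) rose. So did the thioredoxin-like Txnl1 (0.37) and the shuttles Ubqln2 (0.37) and Rad23b (0.35), which carry tagged proteins to the proteasome. Against PBS, 1 partner rose and 1 fell, where 9.53% of all genes rose and 7.59% fell. Adrm1, the last subunit of the base, was not analysed here. Pomp, the maturation factor of the core, differed by -0.01, and the segregase Vcp by -0.02. Nfe2l1, which encodes NRF1, was at 7.84, 7.63, 7.66 and 7.64 with control siRNA and 7.50, 7.28, 7.49 and 7.40 with Rab5 siRNA. All Rab5 values were lower, but its change of -0.28 missed the threshold (adjusted p = 0.0594).

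The related factor NRF2 and its antioxidant targets moved upward. Of 8 listed genes 6 rose and 0 fell, with a median of 0.85, where 13.8% of all genes rose and 9.51% fell. Nfe2l2, which encodes NRF2, rose by 0.99 (SE 0.179, adjusted p = 1.31e-03), from 7.42, 7.41, 7.999 and 8.17 to 8.54, 8.64, 8.66 and 9.10. Earlier results of these data had already shown a rise of NRF2 targets, so the list is no independent support. Cell cycle genes rose too, 6 of 6 measured, with list means of 4.30 to 5.30 in control and 6.87 to 7.47 in Rab5 livers, and their part in the changes of the proteasome genes was not tested. Of other markers, 2 of 9 hepatocyte genes fell, 1 of 7 lymphocyte genes fell, 1 of 8 stellate cell genes rose, 3 of 5 sinusoidal endothelial genes fell and 1 of 3 cholangiocyte genes rose. The shares of all genes beside each of these counts are again 13.8% up and 9.51% down. Against PBS, 2 hepatocyte genes and 1 lymphocyte gene fell, 3 stellate cell genes rose, and 0 sinusoidal endothelial and 0 cholangiocyte genes were called by limma. In that comparison 9.53% of all genes rose and 7.59% fell.

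**Figure D5:**
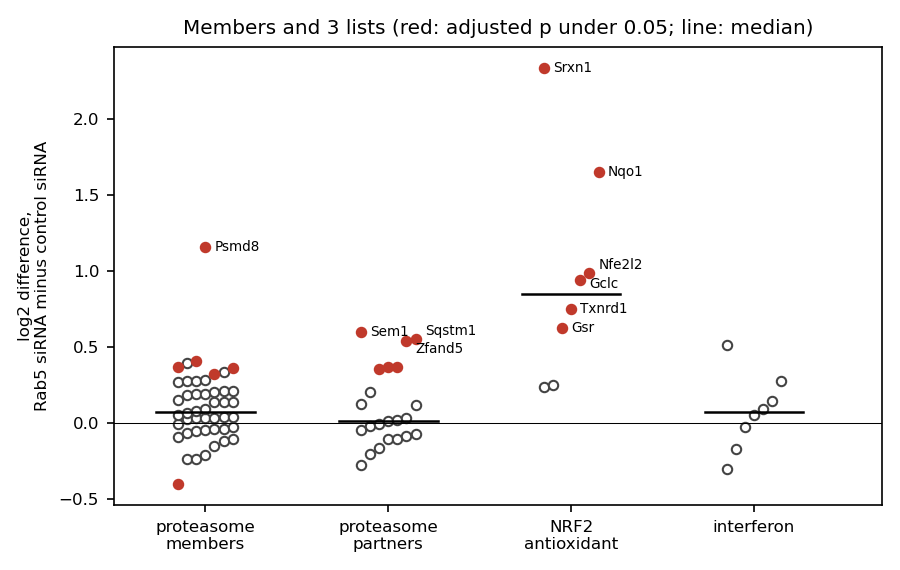
Log2 difference of Rab5 siRNA minus control siRNA (y axis) for the 46 proteasome members and for the measured genes of 3 lists; each point is a gene, red points passed at an adjusted p under 0.05, and the line is the median. The members centre at 0.07 and the partners at 0.02, the NRF2 list at 0.85 and the interferon list at 0.07.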

How the data were processed

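The table holds log2 expression values per probe set, which the authors deposited; per the submitters' processing notes, Affymetrix Expression Console, RMA and Partek 6.6 were used, in an order not given. RMA evens out the arrays, so a shift of all transcripts would not be seen, and low values are compressed. No genome build was used for the expression values, and GRCm38.p6 served for the promoters alone. Detection calls were not used.

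Gene symbols came from the platform annotation. Probe sets above 4.33, the median of the table, in at least 2 arrays were kept, and the one with the highest mean stood for its gene, which left 12855 genes. Group means were estimated from the 10 arrays together with limma 3.58.1 in R 4.3.3 (lmFit, eBayes), with Benjamini-Hochberg adjustment over all genes. All member genes are named; per class, array values are given for called genes and for the gene with the smallest difference, and called partners are given with their differences. Members and lists were chosen with earlier results of these data known. The fit was tested on simulated data with independent genes and arrays, which cannot show the effect of the correlation between arrays given below.

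Deviations of equally numbered control and Rab5 arrays from their group means correlated with r of 0.391, 0.149, 0.186 and 0.312 over genes. Every pair exceeded a limit of 0.1. The titles do not say that equal numbers are pairs, and the main fit did not use them as pairs. Replicates 2 and 4 also correlated with another number at up to 0.199, above the 0.149 of replicate 2 with its own. The fit with the numbers as a block is an alternative, as are filters, scalings and left-out arrays. For Rab5 siRNA against control siRNA the block called 8 members and 28.9% of all genes, against 6 and 23.3% in the main fit.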

Additional observations from a re-analysis of the deposited data

Results flagged for a closer look

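In 3 of 92 groups of 4 arrays examined, for 46 genes, an array stood far from the others of its group by Dixon's test, where chance alone gives about 5%. For Psmd8, control replicate 2 was at 9.0413 and the other control arrays at 9.2537 to 9.2649. For Psmb10, control replicate 2 was at 7.8696 and the others at 8.3219 to 8.349. For Psma4, control replicate 4 was at 8.9922 and the others at 8.5002 to 8.547. Control replicate 2 had the highest 3' minus 5' difference of Gapdh, 2.86, and its part in these values was not tested.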

How the results depend on the processing

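Under 21 alternatives 4 to 8 members were called for Rab5 siRNA against control siRNA, except for 1 without the arrays numbered 2 (1 up, 0 down), and no called member changed direction. Leaving out 1 array each gave 4 to 7 members, 3 to 6 up and 1 down. With the replicate block 8 were called, the same 6 with Psma1 and Psma8, and the call of no other member changed in this comparison. Quantile normalization gave 3 up and 3 down, with Psmg3 (-0.3047) and Psme3ip1 (-0.3039) called and Psmd5 and Psmg4 lost, and median centring 3 up and 2 down, with Psme3ip1 called (-0.28, adjusted p = 0.0467) and the same losses. Median centring moved the median of all genes to -0.04. For Rab5 siRNA against PBS the mean of probe sets gave 4 members with 1 down, leaving out 1 array 1 to 4, all up, dropping the arrays numbered 2 gave 1, and dropping the siRNA arrays numbered 1 gave 4. For control siRNA against PBS 0 members were called under each alternative. Class medians moved by more than the spread between arrays for activators and inhibitors (0.01271 with the mean of probe sets and 0.02949 with quantile normalization), and without 1 array they ran from 0.01821 to 0.1664 in the base and from -0.07019 to 0.1058 in the assembly class. The number of arrays limits precision, and no detection calls say how far a dim probe set lies above background.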
